A study of Rattus norvegicus with 119 samples.

Results

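Keratins are the intermediate filament proteins of epithelia, and 7 of them were followed through every count table of a study of neonatal rat urethra. They were chosen by Ensembl gene ID from the 32662 genes in the tables. The genes were Krt5 (ENSRNOG00000050420), Krt7 (ENSRNOG00000008057), Krt8 (ENSRNOG00000009779), Krt15 (ENSRNOG00000014099), Krt18 (ENSRNOG00000047393), Krt19 (ENSRNOG00000014233) and Krt17 (ENSRNOG00000026371), the last with its ID from the study's list of differential transcripts. All samples came from female Wistar rats at postnatal day 0, with animals pooled. The ventral mesenchymal pad (VMP) is a mesenchymal condensation that can induce prostatic epithelium, and the adjacent urethra (SU) holds urethral epithelium, the mesenchyme around the urethra and smooth muscle. Intact tissue of each was measured by Tag-seq, which counts short tags beside an NlaIII restriction site, and cells released with collagenase and strained away from epithelial sheets were measured by RNA-seq. There was 1 library per tissue and assay, so no difference within an assay has a replicate check. A further 49 VMP and 66 SU cells were sequenced singly (scRNA-seq) on a Fluidigm C1 chip.

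Keratin filaments are built from pairs of a type II and a type I chain. Krt5, Krt7 and Krt8 are type II, and Krt15, Krt17, Krt18 and Krt19 are type I. Krt8 and Krt18 are the partners of simple epithelia and among the earliest keratins of the embryo, while Krt7 and Krt19 accompany them in glandular, ductal and urothelial cells. Krt5 marks the basal layer of stratified epithelium and urothelium, Krt15 is typical of basal cells, and Krt17 of basal and appendage cells. Here Krt5, Krt15 and Krt17 are called basal, and Krt7, Krt8, Krt18 and Krt19 simple. Mesenchymal cells chiefly build their filaments from vimentin.

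The Tag-seq libraries held 7870450 counts on genes in VMP and 8215177 in SU, and the RNA-seq libraries held 4397699 and 7007767. Single cells held between 199849 and 1488320 counts, with medians of 614376 in VMP and 631066 in SU. The labels' protocol speaks of 52 VMP and 63 SU cell libraries, whereas the labels and tables hold 49 and 66, and it was not possible to tell which cells account for this. Levels are in CPM, the counts of a gene per 1000000 counts on all genes of the library. Intervals are at 95% and cover counting error only. They take each read as an independent draw, and since reads are not independent molecules they may be too narrow.

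In Rnor_6.0 coordinates the type II genes lay on chromosome 7, with Krt7 at 143059764 to 143075907, Krt5 at 143316920 to 143453546 and Krt8 at 143596511 to 143603803. The type I gene Krt18 lay beside Krt8, at 143629455 to 143633131. The other type I genes lay on chromosome 10, with Krt15 at 88046803 to 88050622, Krt19 at 88055841 to 88060561 and Krt17 at 88118001 to 88163723. The annotated span of Krt5 was 136627 bases and took in Krt1, and that of Krt17 was 45723 bases, so reads of neighbours may be counted or lost there. RefSeq names 7 copies or pseudogenes of Krt18 and 1 of Krt8, so counts of these genes are uncertain where such copies share reads.

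RefSeq promoter sequences (GRCr8) were matched to 3 of the 7 genes in the table used here, and the 250 bases before each annotated start are shown because all 3 genes were higher in SU tissue. Capitals mark matches to TATAAA or GGGCGG on either strand. They are at chr7:134730570-134730819 (Krt5, minus strand), chr7:135010340-135010589 (Krt8, minus strand) and chr7:135035918-135036167 (Krt18, plus strand).
Krt5: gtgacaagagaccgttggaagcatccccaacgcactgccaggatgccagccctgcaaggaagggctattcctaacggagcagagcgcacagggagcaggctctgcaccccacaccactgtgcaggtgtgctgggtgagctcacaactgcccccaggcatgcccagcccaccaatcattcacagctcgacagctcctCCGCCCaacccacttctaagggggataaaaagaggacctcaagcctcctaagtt
Krt8: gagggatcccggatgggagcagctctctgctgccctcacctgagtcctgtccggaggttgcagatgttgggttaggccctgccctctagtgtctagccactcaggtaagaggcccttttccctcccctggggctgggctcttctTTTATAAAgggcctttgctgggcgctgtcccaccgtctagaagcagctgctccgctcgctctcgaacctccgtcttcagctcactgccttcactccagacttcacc
Krt18: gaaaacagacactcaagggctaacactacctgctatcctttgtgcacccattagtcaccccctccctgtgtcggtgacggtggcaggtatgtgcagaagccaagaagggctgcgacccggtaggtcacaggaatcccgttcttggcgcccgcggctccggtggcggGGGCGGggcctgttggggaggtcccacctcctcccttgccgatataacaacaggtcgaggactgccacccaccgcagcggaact
The Krt8 window held TATAAA on both strands, overlapping, and the forward match began 104 bases before the start. The Krt5 and Krt18 windows each held GGGCGG, which began 54 and 84 bases before the start, on the opposite and the given strand. Among 33469 RefSeq promoters of the same window, 12.9% held TATAAA and 30.5% held GGGCGG. The motif TGANTCA was also searched, was held by 6.34% of promoters and was in none of these 3 windows. These are matches of letters only.

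Which tissue held the keratins was asked first in intact tissue. All 7 keratins had more Tag-seq counts in SU than in VMP, from 7.65-fold (Krt8) to 27.04-fold (Krt5). Their summed level was 202 CPM (192 to 212) in VMP and 2517 CPM (2483 to 2552) in SU, and the log2 of VMP over SU was -3.75 (-3.83 to -3.68). Ratios were scaled with TMM and used a pseudocount of 0.5 counts, and a gene was called where it passed 1 CPM in either library and its log2 ratio was at least 1.5 in size. All 7 were called toward SU, against 13.8% of the 12191 genes tested. The median log2 ratio of all tested genes was 0.01. In these bulk libraries fewer keratin-expressing cells and less keratin RNA per cell cannot be told apart.

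The basal keratins differed most as a sum. They reached 85.0 CPM in VMP against 1634 CPM in SU, a log2 ratio of -4.38 (-4.49 to -4.26). Krt15 had 536 counts (68.1 CPM) in VMP and 10726 counts (1306 CPM) in SU, and was the most counted of the 7 in SU. Krt17 had 114 counts (14.5 CPM) and 2190 counts (267 CPM). Krt5 had 19 counts (2.41 CPM) and 509 counts (61.96 CPM). The log2 ratios of these genes, -4.37 for Krt15, -4.31 for Krt17 and -4.76 for Krt5, had overlapping counting intervals. The 3 basal keratins were thus lower in VMP by a like factor, although their levels spanned a wide range in each tissue.

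The simple keratins summed to 117 CPM in VMP and 883 CPM in SU, a log2 ratio of -3.03 (-3.13 to -2.93) whose interval did not meet that of the basal sum. Krt7 had 854 counts (108.5 CPM) in VMP and 6405 counts (780 CPM) in SU, and was the most counted of the 7 in VMP. Krt19 had 42 counts (5.34 CPM) in VMP and 592 counts (72.1 CPM) in SU. The partners Krt8 and Krt18 had the fewest counts of the simple keratins. Krt8 had 20 counts (2.54 CPM) in VMP and 151 counts (18.4 CPM) in SU. Krt18 had 4 counts (0.508 CPM) in VMP and 107 counts (13.02 CPM) in SU. The log2 ratio was -2.96 (-3.06 to -2.85) for Krt7, -2.94 (-3.72 to -2.29) for Krt8, -3.85 (-4.35 to -3.41) for Krt19 and -4.63 (-6.69 to -3.39) for Krt18. Within the simple class Krt7 therefore lay apart from Krt19 and Krt18 beyond counting error, while the wide interval of Krt8 met those of the others.

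**Figure D1:**
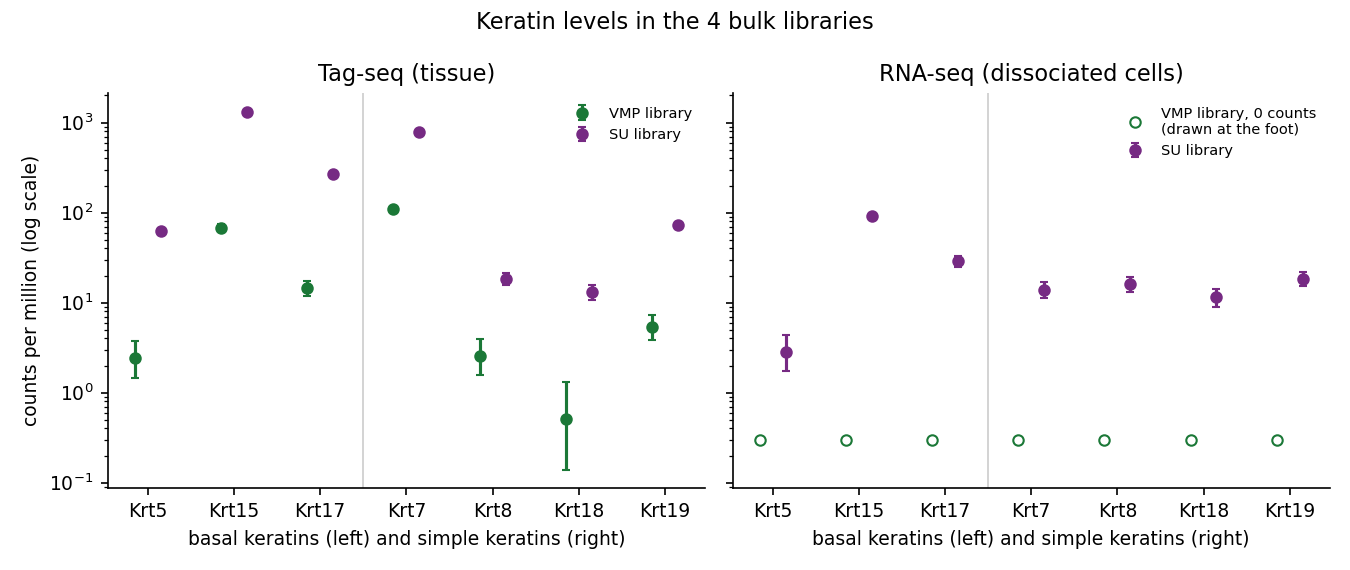
Levels in CPM (log axis) of the 3 basal and 4 simple keratins in the 4 bulk libraries, with exact Poisson 95% intervals for counting error and 1 library per point. SU lies above VMP for all 7 genes in both assays, and open circles, drawn at the foot of the axis, mark the 7 keratins with 0 counts in VMP RNA-seq.

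Because a Tag-seq count does not grow with transcript length, the keratins were set in order of their Tag-seq level. Counts also depend on the NlaIII site of each gene and on unique mapping of its tag, neither of which was checked. The order is therefore of counts and may differ from that of transcripts. Krt8 and Krt18, the genes with named copies, came last in SU tissue. In SU tissue the order was Krt15, Krt7, Krt17, Krt19, Krt5, Krt8 and Krt18. Intervals of neighbours did not meet except those of Krt19 and Krt5, at 66.4 to 78.1 CPM and 56.7 to 67.6 CPM. Those of Krt8 and Krt18, at 15.6 to 21.6 CPM and 10.7 to 15.7 CPM, met as well. Meeting of intervals does not show that levels are equal, and differences within these pairs were not tested. In VMP tissue Krt7 came before Krt15, followed by Krt17, Krt19, Krt8, Krt5 and Krt18. There the intervals of Krt19 and Krt8 met, as did those of Krt8 and Krt5, and the interval of Krt18, 0.138 to 1.30 CPM, lay below those of the rest.

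The make-up of the keratin counts differed between the tissues as well as their amount. Basal keratins took 42.1% (39.7 to 44.6%, exact Clopper-Pearson) of the keratin counts in VMP Tag-seq and 64.9% (64.3 to 65.6%) in SU Tag-seq, a difference of -22.8 percentage points (-25.3 to -20.3, Newcombe). Krt15 and Krt7 carried this difference in opposite directions. Krt15 took 33.7% in VMP and 51.9% in SU, and Krt7 took 53.7% in VMP and 30.97% in SU. Krt17 took 7.17% and 10.6%. The shares of Krt19, at 2.64% and 2.86%, did not differ beyond counting error. Type I chains made up 43.8% of keratin counts in VMP and 65.8% in SU. With Krt7 left out of both libraries the basal share was 91.02% in VMP and 94.05% in SU, and with Krt15 left out it was 12.6% and 27.1%, so SU kept the larger basal share in each case but by a narrower margin.

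**Figure D2:**
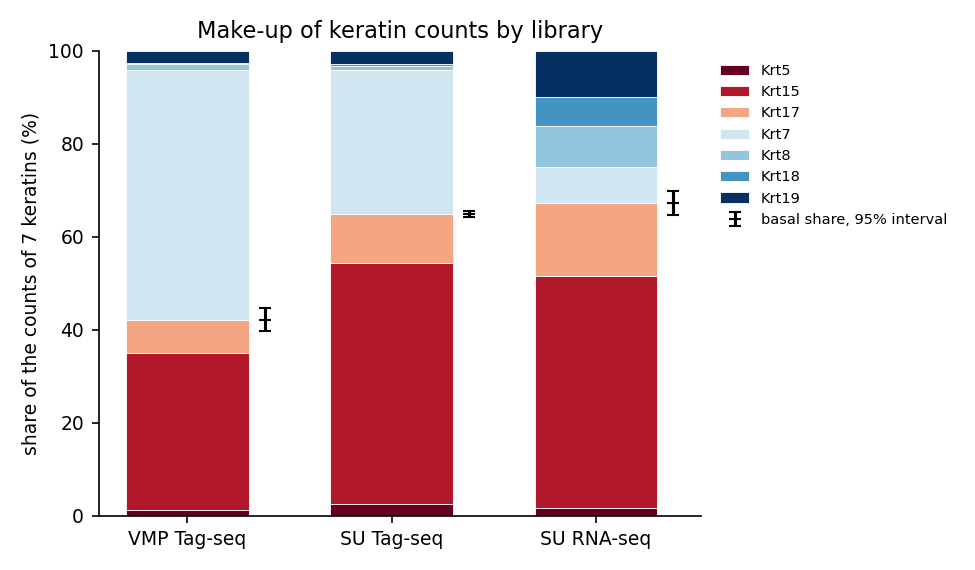
Share (%) of the counts of the 7 keratins taken by each gene in 3 bulk libraries, stacked from basal (reds) to simple (blues), with the basal share and its 95% Clopper-Pearson interval beside each bar. Krt7 (palest blue) takes 53.7% in VMP Tag-seq, 30.97% in SU Tag-seq and 7.67% in SU RNA-seq, and VMP RNA-seq is not drawn because it held 0 keratin counts.

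The same comparison in dissociated cells was starker. None of the 7 keratins had a count in the VMP RNA-seq library, which allows at most 0.839 CPM for each (upper limit of the exact interval). The SU library held 1277 keratin counts, or 182 CPM (172 to 193). Krt15 was again the most counted, with 637 counts (90.9 CPM), and the other basal keratins had 202 counts (Krt17, 28.8 CPM) and 20 counts (Krt5, 2.85 CPM). Among the simple keratins Krt19 had 128 counts (18.3 CPM), Krt8 had 112 counts (15.98 CPM), Krt7 had 98 counts (13.98 CPM) and Krt18 had 80 counts (11.4 CPM). RNA-seq counts grow with transcript length, and no lengths were used here, so these are not ranked. Against a floor of 3 counts per library the summed level was at least 309-fold lower in VMP, and the bounds of single genes ran from at least 4.83-fold lower (Krt5) to at least 154-fold lower (Krt15). The paper used a set number of cells from each pool for RNA-seq. These bounds therefore concern the reads counted and not which cells were taken. All 7 were called toward SU by the same rule, against 15% of the 17527 genes tested, whose median log2 ratio was 0.03. A gene with 0 counts in 1 library that passes 1 CPM in the other is always called, so these calls restate the zeros.

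**Figure D3:**
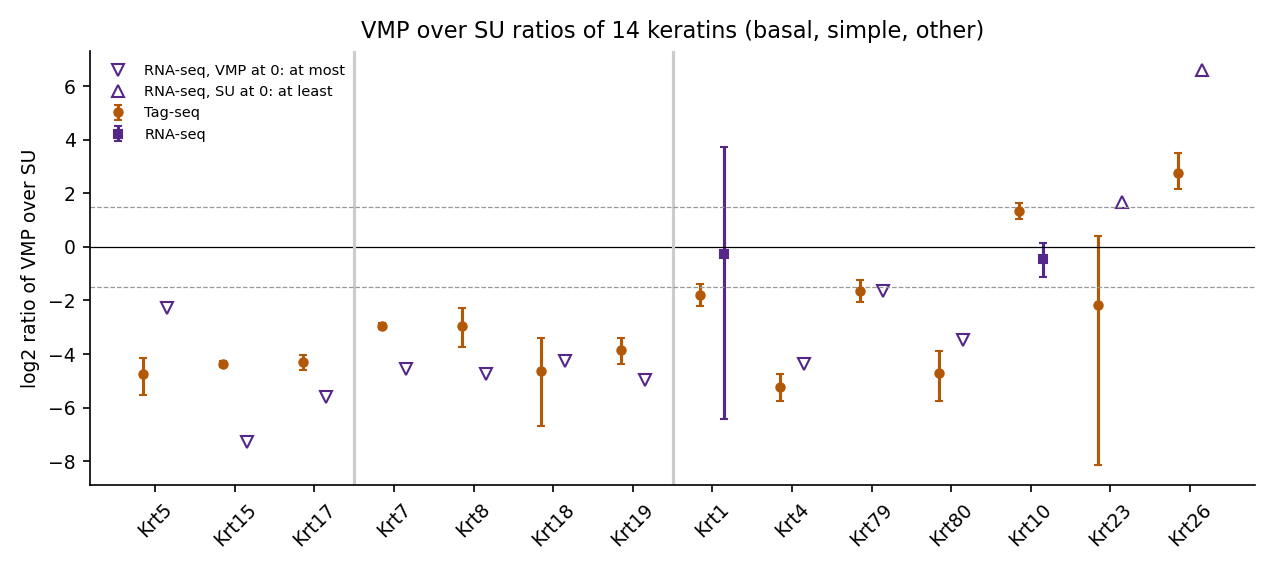
Log2 ratio of VMP over SU for the 7 keratins (left and middle) and 7 other keratins (right) in Tag-seq (circles, 95% counting intervals) and RNA-seq (squares), with dashed lines at the limit of 1.5 in either direction. Triangles are bounds taken against 3 counts where a library held none, pointing down for VMP and up for SU, and all 7 genes lie below the lower dashed line in both assays.

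The only fit with residual spread joined the 4 bulk libraries and took the assay as a block, so that its error is the disagreement between assays and not between animals. In edgeR's quasi-likelihood fit of 18445 genes past 1 CPM in either assay, all 7 keratins were lower in VMP at a Benjamini-Hochberg adjusted p below 0.05, against 1.3% of genes called toward SU. The adjusted p ran from 1.38e-09 (Krt15, log2 ratio -5.88) to 0.0116 (Krt8, log2 ratio -4.51). This count depended on the tool and on which genes entered the fit. With genes required to pass in both assays, edgeR tested 11273 genes and called 3 keratins, Krt5 (adjusted p = 0.0464), Krt15 (0.0330) and Krt17 (0.0207), against 0.337% of genes toward SU, and the 4 simple keratins lay between 0.0507 (Krt19) and 0.198 (Krt8). DESeq2 on the 18445 genes called 4, Krt5, Krt7, Krt17 and Krt19, against 0.77% toward SU, with an adjusted p of 0.142 for Krt15 and none given for Krt8 and Krt18. On the 11273 genes DESeq2 called 6, against 2.04% toward SU, with adjusted p from 9.99e-08 (Krt17) to 0.00891 (Krt8) and 0.110 for Krt15. The direction was the same for all 7 genes in each of these fits.

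How much keratin RNA the dissociated SU cells retained was described by the ratio of Tag-seq to RNA-seq levels in SU. Assay, dissociation and straining cannot be told apart in this ratio. The summed level of the 7 was 13.8-fold (13.1 to 14.6) higher in tissue, but single genes differed widely. Krt7 was 55.8-fold (45.7 to 68.8) higher in tissue, Krt5 21.7-fold (13.9 to 35.8), Krt15 14.4-fold (13.3 to 15.6), Krt17 9.25-fold (8.004 to 10.7) and Krt19 3.95-fold (3.25 to 4.81). Krt8 and Krt18, the filament partners of simple epithelium, had ratios of 1.15 (0.895 to 1.48) and 1.14 (0.846 to 1.54), so that neither differed from 1 beyond counting error on the CPM scale. With TMM over the 4 libraries the ratios were 1.48 (1.15 to 1.90) and 1.47 (1.09 to 1.98), both above 1, and they remained the lowest of the 7. Both are the genes with named copies in RefSeq. As a sum, the basal keratins were 13.3-fold (12.4 to 14.3) and the simple keratins 14.8-fold (13.4 to 16.4) higher in tissue, and the basal share of keratin counts in SU RNA-seq, 67.3% (64.6 to 69.8%), differed from that in SU Tag-seq by 2.35 percentage points (-0.35 to 4.95). That likeness of the classes held beside large and opposite shifts of their members, since the share of Krt7 differed by -23.3 points in RNA-seq (-24.8 to -21.6) and those of Krt8, Krt19 and Krt18 were 8.04, 7.16 and 5.75 points larger. These shares mix transcript length with abundance in RNA-seq. In VMP, where RNA-seq held no count, the tissue level was at least 296-fold higher for the 7 together and at least 159-fold higher for Krt7. These bounds were taken against the floor of 3 counts and cover the reads counted only.

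**Figure D4:**
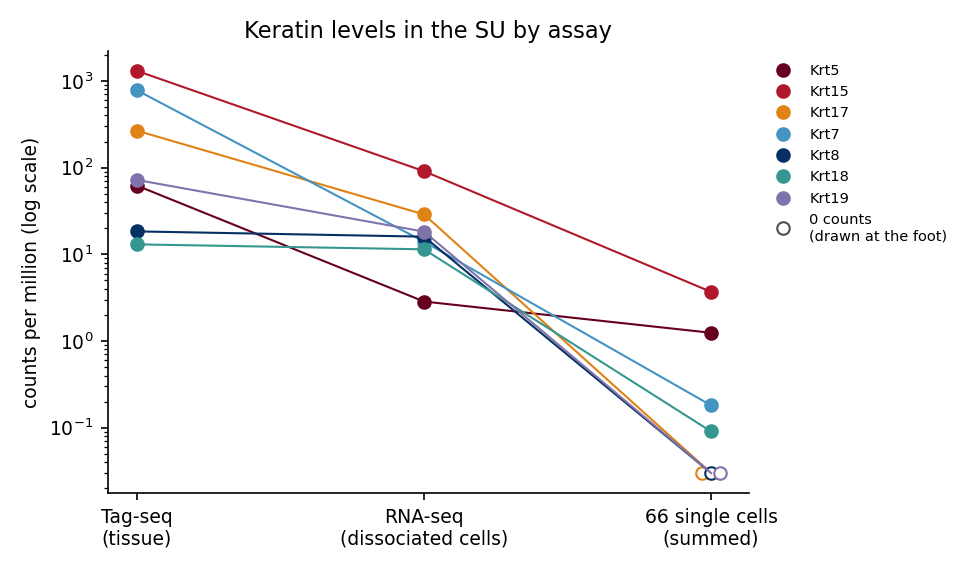
Levels in CPM (log axis) of the 7 keratins in SU in Tag-seq of tissue, RNA-seq of dissociated cells and the sum of 66 single cells, with lines joining the values of a gene and open circles, drawn at the foot of the axis, for 0 counts. Krt8 and Krt18 are nearly level from tissue to dissociated cells, Krt7 falls the farthest there, and Krt8, Krt17 and Krt19 have 0 counts in the cells.

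Keratin reads were rare in single cells. In SU, 8 of 66 cells (12.1%, 5.38 to 22.5%) had a read of any of the 7, and these cells held 230 reads, or 5.20 CPM (4.55 to 5.92) over the 44206782 counts of all SU cells. The SU RNA-seq level was 35.0-fold (30.4 to 40.5) higher. Basal keratins made up 218 of the 230 reads. Krt17, Krt8 and Krt19 had no read, and 0 of 66 cells allows a share of cells with a read of up to 5.44% for each (exact 95% upper limit), or 4.55% by the floor of 3 cells. The RNA-seq levels of these 3 genes were at least 425-fold, 236-fold and 269-fold higher than the floor of 3 counts over all SU cells.

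Krt15 was read in 6 SU cells, with 149, 6, 3, 2, 2 and 1 reads. The cell with 149, cell 45, was the deepest of the SU cells with 1488320 counts, and was also the only cell of either tissue with reads of more than 1 of the 7, having 4 reads of Krt18. It held 12 reads of Upk3a, a uroplakin of the urothelial surface, and 1 read of another uroplakin, Upk1a. Upk2 had no read in any SU cell. Such reads were not particular to this cell, since other SU cells held up to 9 reads of Upk1a and 102 of the claudin Cldn4. Cell 45 held 1 read of Epcam, a count that no cell of either tissue exceeded. Over 4 of 19 epithelial genes other than keratins, Epcam among them, it held 123 reads, 116 of them from 1 gene. Its levels of the fibroblast collagen Col1a1, 7834 CPM, and of the matrix proteoglycan Dcn, 4099 CPM, lay within the range of the other SU cells, whose medians over all SU cells were 9326 and 3245 CPM. Epithelial and mesenchymal transcripts were thus read in the same library. Whether that library held more than 1 cell was not tested.

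The other 5 cells with Krt15 reads, cells 13, 14, 15, 16 and 18, all carried the letter C in their column names. No source used here says what this letter stands for. Of 8 SU cells with that letter 5 had Krt15 reads, 14 in all, against 1 of 58 other SU cells. Krt15 was the only gene of the table with reads in at least 4 of those 8 cells and at most 1 other SU cell. The letter was picked from the Krt15 reads themselves, so that Krt15 met this rule is no further evidence. Other letters were not searched in this way. Without these 8 cells the share of SU cells with any of the 7 keratins was 5.17%, while the summed level was 5.77 CPM, because cell 45 held most of the reads. Whether what the letter marks contributed to these low counts was not tested.

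Krt5 and Krt7, like Krt18, were each read in a single SU cell. Cell 68 held 55 reads of Krt5 and cell 24 held 8 reads of Krt7, neither with a read of any other of the 7. Neither cell held a read of Epcam, Upk1a or Upk3a. Without cell 45 the summed keratin level over SU cells was 1.80 CPM, so that 1 cell decided most of it.

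**Figure D5:**
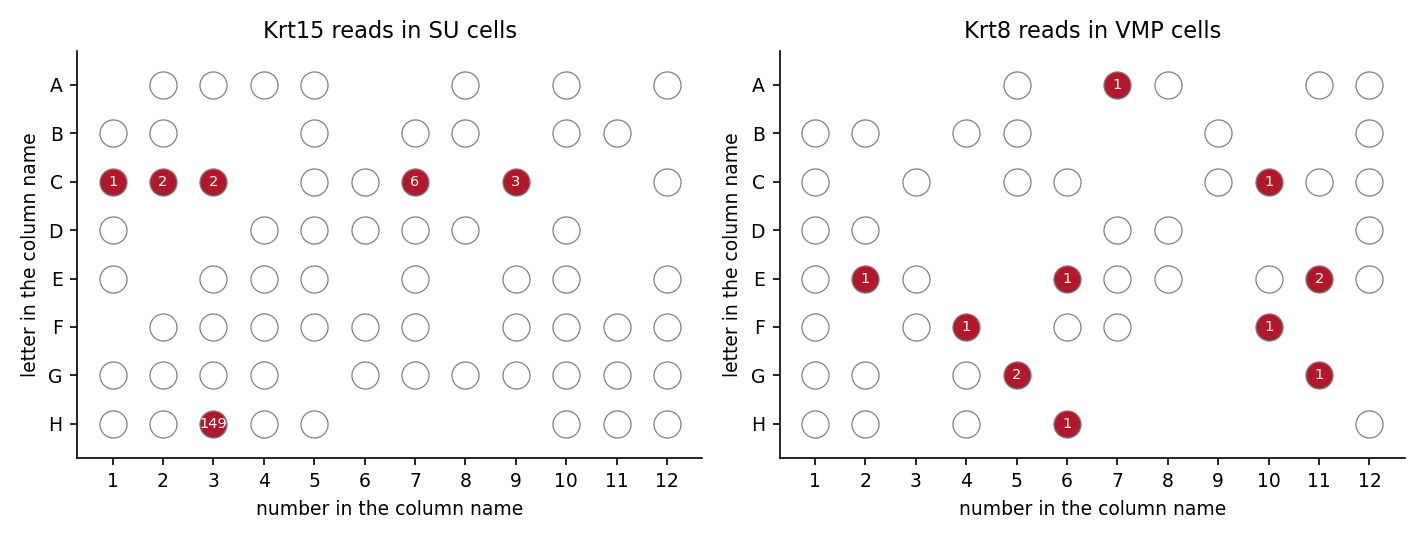
Krt15 reads in the 66 SU cells (left) and Krt8 reads in the 49 VMP cells (right), each circle a cell at the letter and number in its column name, filled and numbered with its reads where there were any. Of 6 SU cells with Krt15 reads 5 carry the letter C, and Krt8 reads in VMP cells are 1 or 2 per cell and spread over letters.

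In VMP cells the only one of the 7 with reads was Krt8, with 12 reads in 10 of 49 cells (20.4%, 10.2 to 34.3%), 8 cells with 1 read and 2 cells with 2. Their level, 0.403 CPM (0.208 to 0.703), was below the upper limit for Krt8 in VMP RNA-seq. After thinning every cell to 199849 counts, 2 VMP cells (4.08%) kept a read, against 5 SU cells (7.58%) with any of the 7, so the order of the tissues by this share turned. None of the 10 cells held a read of Krt18, its partner, and their Col1a1 levels ran from 1602 to 6293 CPM. For each of the other keratins 0 of 49 cells allows a share of up to 7.25% (exact 95% upper limit), or 6.12% by the floor of 3 cells. Krt8 thus had the opposite order in cells and in bulk, with reads in VMP cells and none in 66 SU cells, but at 1 or 2 reads per cell and with a named pseudogene this was not tested between tissues.

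Other genes of the family showed that the direction was not shared by every keratin. The tables pair 7 further keratins with an ID. Krt4, a keratin of mucosal stratified epithelium, had 35 counts in VMP and 1273 counts in SU in Tag-seq (log2 ratio -5.21) and 0 counts and 85 counts in RNA-seq. Krt80 had 11 counts and 286 counts in Tag-seq (-4.69) and 0 counts and 46 counts in RNA-seq, and 132 reads in 1 SU cell. Krt1, a keratin of differentiating epidermis whose gene overlaps the Krt5 model, had 69 counts and 230 counts in Tag-seq (-1.78), and Krt79 had 68 counts and 205 counts (-1.63). These 4 were called toward SU in Tag-seq, against 13.8% of genes tested, as were Krt4, Krt79 and Krt80 in RNA-seq, against 15%. Those 3 had 0 counts in VMP RNA-seq, so their RNA-seq calls restate the zeros. The 7 further keratins have their IDs from the study's tables of differential transcripts, so their calls are not independent evidence.

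Krt26, a type I keratin of the hair follicle, went the other way. It had 166 counts in VMP and 23 counts in SU in Tag-seq (log2 ratio 2.78, 2.17 to 3.50) and 209 counts and 0 counts in RNA-seq, at least 96.1-fold lower in SU. It was called toward VMP in both assays, against 7.36% and 16.2% of genes tested. Its RNA-seq call likewise followed from 0 counts in SU. In the edgeR fit of 18445 genes its adjusted p was 4.35e-04, and in DESeq2 0.0514. Reads were found in 9 of 49 VMP cells, 102, 28, 23 and 10 in 4 of them and 1 each in 5, and in 0 of 66 SU cells. Krt10, the epidermal partner of Krt1, was not called in either assay. Its reads were in 8 VMP cells, with 8 to 125 reads each and 293 in all, and in 26 SU cells, with a median of 1.5 reads and 105 in all. Krt10 was therefore read in fewer VMP than SU cells but at more reads per positive cell. Of the 8 VMP cells with Krt10 reads 2 also held Krt26 and 1 held Krt8.

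Markers of epithelial cells moved with the keratins. Of 19 epithelial genes without keratins 18 were tested in Tag-seq and all 18 were called toward SU, against 13.8% of genes tested. Their median log2 ratio was -3.42, and those of the 7 single keratins ran from -2.94 (Krt8) to -4.76 (Krt5). Epcam, an adhesion protein, had 273 CPM and 5526 CPM, and Cldn4, a tight junction claudin, had 124 CPM and 1195 CPM. The list summed to 644 CPM (VMP) and 9468 CPM (SU). In RNA-seq 9 of 17 tested were called toward SU and 2, Cdh3 and Prss8, toward VMP, against 15% and 16.2% of genes tested. The median log2 ratio there was -2.20. The summed level of the list was 52.98 CPM in VMP and 199 CPM in SU. The VMP RNA-seq library, with 0 counts of the 7 keratins, held counts of some epithelial markers. Among these were Epcam (19 counts), Cdh1 (12 counts) and Ovol1 (45 counts), while 6 of the 19 genes had 0 counts there. Ovol1 also had reads in 29 of 49 VMP cells and 33 of 66 SU cells, and every VMP cell had reads of Col1a1. Whether the Ovol1 counts came from epithelial cells was not tested. Sfn had no count in Tag-seq and 83 counts in SU RNA-seq. In cells, 9 of the 19 genes had no read in any VMP cell and 9 none in any SU cell, with Cdh1, a defining epithelial cadherin, at 0 in both. The 4 uroplakins were called toward SU in Tag-seq, against 13.8% of genes tested, with a summed level of 235 CPM and 1523 CPM. The IDs of these lists come from the study's own tables of differential transcripts, so their direction is not independent evidence, and their part in the keratin result was not tested.

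Other cell types moved as well. Of 11 matched mesenchymal genes 3 (Dcn, Pdgfra and Fbln1) were called toward VMP in Tag-seq, against 7.36% of genes tested. Their list summed to 47864 CPM (VMP) and 23652 CPM (SU) there. By RNA-seq, 6 of these 11 genes were instead called toward SU, against 15% of genes tested. The sums were then 22955 CPM (VMP) and 50973 CPM (SU). All 4 skeletal muscle genes were called toward SU in both assays, against 13.8% (Tag-seq) and 15% (RNA-seq) of genes tested. Every one of the 115 single cells had reads of Col1a1, Col3a1 and Dcn. The lists for smooth muscle (1 of 5 matched), endothelium (2 of 4) and mesothelium (1 of 4) had too few matched genes to be described.

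By the distance between log2(CPM + 1) profiles, each centred over the 4 bulk libraries, the genes nearest to both the basal and the simple sum among 11273 were Cldn4, Srl, S100a6, Upk1a and Capn5, in that order. Cldn4 was nearest, at a distance of 1.45 to the basal and 0.61 to the simple sum. It had 0 CPM in VMP RNA-seq and 44.4 CPM in SU RNA-seq. Srl, the second nearest, had Tag-seq levels of 56.7 and 362 CPM in VMP and SU, and RNA-seq levels of 0 and 26.3 CPM. S100a6 had 440 and 2318 CPM in Tag-seq, and 1.14 and 78.2 CPM in RNA-seq. Upk1a, a uroplakin, had Tag-seq levels of 104 and 691 CPM in VMP and SU, and RNA-seq levels of 0 and 20.1 CPM. Capn5 had 73.2 and 815 CPM in Tag-seq, and 0.455 and 20.7 CPM in RNA-seq. Likeness over 4 libraries is a description, with no test.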

How the data were processed

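Groups follow the tissue and assay labels. The values deposited by the authors are raw counts per Ensembl gene. For Tag-seq the authors shortened reads to their tags, used Bowtie2 against Rnor_6.0 and kept unique reads outside mitochondrial DNA. For single cells they used Trimmomatic 0.33 and TopHat and removed duplicates with Picard 1.128, and the alignment of bulk RNA-seq is not described apart. Spike-in rows stayed out of totals.

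From these counts, CPM, shares and ratios with exact Poisson, Clopper-Pearson, Newcombe and conditional binomial 95% intervals were computed (scipy 1.17.1, numpy 2.4.6 and pandas 2.3.3 in Python 3.11.15, with figures in matplotlib 3.10.9). TMM scaling and the fits over the 4 bulk libraries were made in R 4.3.3 (DESeq2 1.42.0, edgeR 4.0.16) and were tested on simulated data. TMM lowered log2 ratios by 0.11 in Tag-seq and 0.21 in RNA-seq against scaling by total count. The study's own NOISeq simulation was not used. Where a library held 0 counts, 3 counts stood in as the floor of a fold. Cells were not filtered and doublets were not removed.

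The text names the 7 keratins, the other keratins with an ID, at most 6 genes of a list by level in SU Tag-seq and the 5 genes nearest in pattern to each sum. Cdh3, Ovol1, Prss8, Sfn and Pdgfra fall outside this rule and were named after their values were seen. Members and lists were chosen with earlier results of these data known. Symbols and coordinates came from the study's tables of differential transcripts (2995 IDs), whose fold changes and p-values were not used. 1 gene of the epithelial list is not reported here by name. The closing section gives the effect of the alternatives.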

Additional observations from a re-analysis of the deposited data

Results flagged for a closer look

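Of the keratins, 2 had opposite directions in the 2 assays. For Krt10 the log2 of VMP over SU was 1.33 (1.03 to 1.64) in Tag-seq, from 329 counts and 126 counts, and -0.46 (-1.11 to 0.15) in RNA-seq, from 34 counts and 65 counts. For Krt23 it was -2.16 (-8.16 to 0.41) in Tag-seq, from 1 count and 6 counts, and 4.37 in RNA-seq, from 7 counts and 0 counts, where SU was at least 3.22-fold lower against a floor of 3 counts. Each value rests on a pair of libraries, and the difference between the assays was not tested for either gene.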

How the results depend on the processing

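The 7 keratins stayed past the limit toward SU in both assays with log2 limits of 1 and 2 and with no filter, and no ratio changed direction. In RNA-seq the 0 counts in VMP fixed this for the log2 limits. The summed log2 ratio was -3.64 in Tag-seq with scaling by total count and -7.54 in RNA-seq with a pseudocount of 5, where the value is set by the pseudocount because VMP held 0 counts. DESeq2 called 4 of the 7, and edgeR with the filter passed in both assays called 3 (39 of 11273 genes called in all, against 309 of 18445), with fewer genes tested, whereas DESeq2 with that filter called 6 (319 of 11273 in all). Leaving out a keratin moved the basal share by construction. Without Krt7 it was 91.02% in VMP Tag-seq, 94.05% in SU Tag-seq and 72.9% in SU RNA-seq. Without Krt15 it was 12.6%, 27.1% and 34.7%. With Krt15, Krt7 and Krt19 only it was 37.4%, 60.5% and 73.8%. The level in SU tissue was 17.7-fold that in dissociated cells with TMM over the 4 libraries, which also put Krt8 (1.48) and Krt18 (1.47) above 1 beyond counting error. The share of VMP cells with a keratin read was 0% at 5 reads or more and 4.08% after thinning, and that of SU cells 6.06% and 7.58%, so that the order of VMP (20.4% at 1 read) and SU (12.1%) turned. For SU it was 5.17% without the cells of letter C. The summed level over SU cells was 3.04 CPM as a mean over cells and 1.80 CPM without the cell with the most reads. The cause of these changes was not tested except where the construction shows it. Alternatives on the filter passed in both assays, TMM for single keratins, the letter C, 3 MADs for the level and the basal share with other keratins left out were chosen after seeing the data. Of 91 alternative values, 61 stayed within their counting interval or kept their count. Here 6 in place of 7 was taken as kept, and the interval of a ratio had no lower end where VMP held 0 counts. The Krt5 log2 ratio in RNA-seq thus stayed within its interval at -1.86 with a pseudocount of 5, against -4.89. Basal shares per transcript length were not run, as no lengths were used. No paired analysis was possible because no label ties the cells of VMP and SU that share a number, and each bulk group holds 1 library, which also leaves no replicate to leave out. Depth limits Krt18 in VMP Tag-seq (4 counts) and every keratin in single cells.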

Other observations

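Keratin filaments are anchored at desmosomes and hemidesmosomes, and 15 of 21 listed genes of these junctions had an ID, too few for a statement on the list. The values of the 6 with the highest level in SU Tag-seq follow, a choice that favours genes higher in SU, with IDs from the study's differential lists. In Tag-seq Jup (plakoglobin) had 478 CPM in VMP and 3079 CPM in SU, Itgb4, the hemidesmosomal integrin subunit, had 94.02 and 798 CPM, and Plec (plectin) had 136 and 609 CPM. Perp had 29.1 and 581 CPM, Dsp (desmoplakin) 25.5 and 307 CPM, and Col17a1 18.3 and 230 CPM. In RNA-seq of dissociated cells, where VMP held no count of the 7 keratins, Jup had 724 counts in VMP and 548 counts in SU (log2 ratio 0.87, 0.70 to 1.03), Plec had 269 counts and 601 counts, and Perp had 94 counts and 151 counts. None of these passed the limit of 1.5.

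Of the other intermediate filament genes only Des (desmin, of muscle) and Synm (synemin) had an ID among 6 listed. In VMP and SU, Des had 575 and 502 CPM by Tag-seq, and 143 and 28.4 CPM by RNA-seq. Synm had 10.9 and 57.3 CPM in Tag-seq, and 2.05 and 3.71 CPM in RNA-seq.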
